A study of Mus musculus with 4 samples.

Results

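The step from newly selected to mature CD4 thymocytes was compared between wild-type mice and mice without the microRNA gene Mir142, gene by gene. For each gene the stage difference (Qa2+ minus Qa2-, log2) was taken in each genotype, and the wild-type stage difference was subtracted from the miR-142-/- one. The result is called the difference of differences: a positive value means that the Qa2+ cells stood higher, relative to the Qa2- cells, without miR-142 than with it. Of 12731 genes above background on at least 2 of the 4 arrays, 69 (0.542%) had a difference of differences of at least 2-fold, and these 69 genes are described here. The labels give 4 groups of 1 array each, all from thymi of 8-week-old C57BL/6n mice. Wild-type (WT, miR-142+/+) cells came from a pool of 5 mice, 3 females and 2 males, and miR-142-/- cells from a pool of 4 mice, 1 female and 3 males. Thymocyte suspensions of both genotypes were depleted of CD8+ cells with magnetic beads, then sorted into CD4+CD8-CD69+Qa2- and CD4+CD8-CD69-Qa2+ cells. The genotype label names no tissue-specific deletion, and pooling leaves no value for a single animal. RNA was measured on Affymetrix Mouse Gene 1.0 ST arrays.

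CD4 single-positive thymocytes are made in the thymic cortex and medulla from cells with both CD4 and CD8. After selection they carry CD69 and lack Qa2, an MHC class Ib protein; as they mature they lose CD69, gain Qa2 and the egress receptor S1pr1, and leave for the blood. Along this path T cell receptor signalling genes quieten, the chemokine receptor Ccr9 goes down, and some cells become regulatory T cells or innate-like T cells. MicroRNAs are short RNAs that repress messenger RNAs pairing with their seed, bases 2 to 8, and miR-142 is made in nearly all blood cells. The Mir142 hairpin lies on the plus strand of chromosome 11 (GRCm38.p6, RefSeq) and gives a mature strand from each arm. Both are shown because the deletion removes them, with the seed in capitals. The 5p strand lies at chr11:87756867-87756887 and the 3p strand at chr11:87756903-87756925.
mmu-miR-142a-5p: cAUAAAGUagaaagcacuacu
mmu-miR-142a-3p: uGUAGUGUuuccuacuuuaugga

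The labels were checked against the arrays. The log2 value of Mir142 was 10.11 on the WT Qa2- array and 9.41 on the WT Qa2+ array, while both miR-142-/- arrays were below background, at 5.29 and 4.88. Cd69 was lower in Qa2+ cells by 0.77 log2 in WT and 0.96 in miR-142-/-. H2-Q4 and H2-Q5, of the class Ib family to which the Qa2 genes belong, were higher in Qa2+ cells of both genotypes. H2-Q2 was not (stage differences of -0.01 and -0.12), while H2-Q10 did not exceed background on any array. The other H2-Q genes sought, those that encode Qa2 itself among them, had no probe set of 1 gene and were not read. The Cd4 values lay between 12.36 and 12.64 and Cd8a between 7.25 and 7.53 on the 4 arrays. Cd8b1, the other CD8 chain gene, stood at 9.97 (Qa2-) and 9.98 (Qa2+) in WT, and at 9.24 and 8.75 without miR-142. Xist, made from the inactive X of females, read 12.67 and 12.14 in WT and was below background in miR-142-/-, while the Y-linked Eif2s3y, Kdm5d and Uty were above background only in miR-142-/-. This goes against the labelled pools, which hold both sexes in each genotype. By these genes sex went with genotype on the arrays. A part of sex and a part of miR-142 therefore cannot be told apart at any gene, on whatever chromosome. Of the 69 genes, 1, Klhl4, is on the X chromosome and 0 are on the Y. For the miR-142-/- Qa2- sample, 1 label field says Qa2+; the title and the sorting gates say Qa2-, and Cd69, H2-Q4 and H2-Q5 follow these.

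The direction and the kind of the difference split the 69 genes. The stage difference was more positive without miR-142 in 40 genes (0.314% of all tested) and more negative in 29 (0.228%). A stage difference was counted in a genotype when it reached 1.5-fold. By that measure 22 genes had a stage difference in WT only (called lost): 11 had the higher value in Qa2+ cells and 11 the lower. In 29 genes it was present in miR-142-/- only (gained): 19 higher and 10 lower in Qa2+. It was present in both with the same sign in 14 genes, being larger in WT in 6 (weakened) and larger in miR-142-/- in 8 (exaggerated). The sign was opposite in 3 genes, Nkg7, Sfrp2 and Itgb8, and under 1.5-fold in both genotypes in 1, Cks2. With 1 array per group there is no replicate and no test, so these are counts past a fold and have no p-value. Array scatter was described with 1179 olfactory and vomeronasal receptor genes, which thymocytes do not use: the SD of their difference of differences was 0.22 log2, the largest was 0.84, and 0 reached 2-fold; 16 of them (1.36%) reached 1.5-fold, the limit used for gene lists below. The SD over all tested genes was 0.27 and the median 0.00. Only 69 of the 1179 receptor genes were above background on at least 2 arrays. With the tested genes cut into 4 equal bins by mean log2 value, the SD was 0.29, 0.30, 0.25 and 0.21 from lowest to highest. The receptor genes thus describe scatter near background and set no limit for scatter of the tested genes. The largest difference of differences was 8.08-fold and the median over the 69 was 2.29-fold, and 13 genes exceeded 1.5 log2. Just inside the 2-fold limit lay Snord22 at 1.00 and Cdc42ep3 at 1.01, and just outside it Arpp21 at -0.99 and Kcnip3 at 0.99. At a limit of 1.5-fold there were 436 genes (3.42%).

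**Figure D1:**
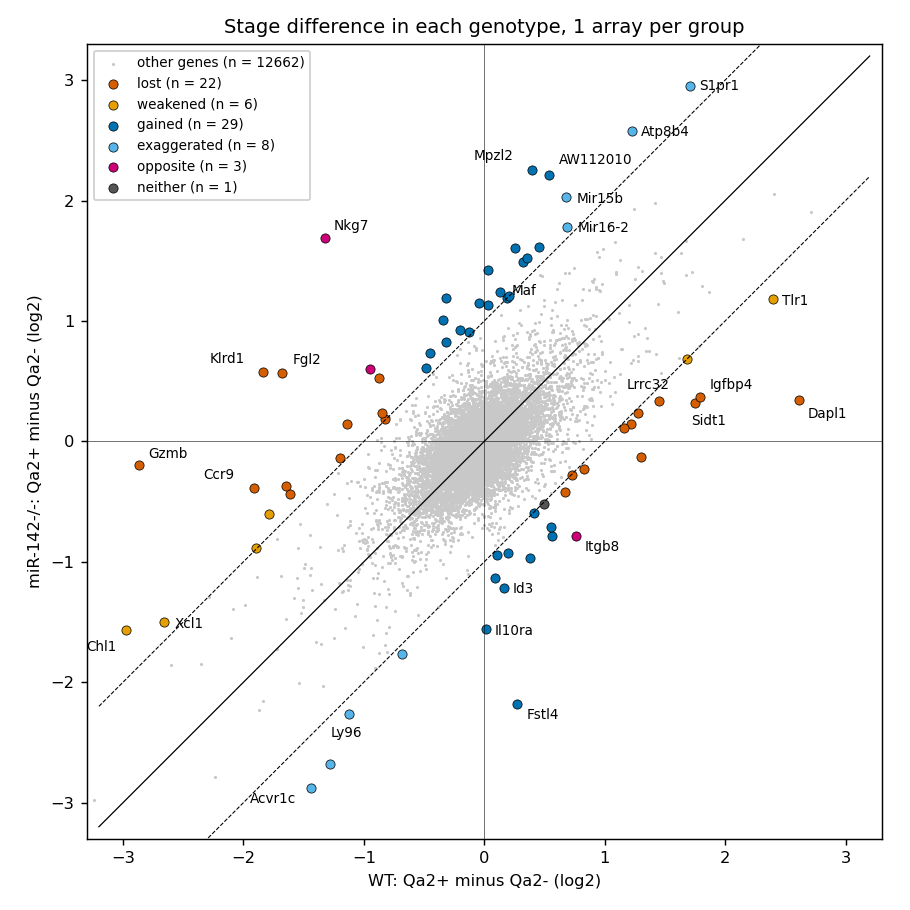
Stage difference in WT (x axis, Qa2+ minus Qa2-, log2) against that in miR-142-/- (y axis, same unit), 1 point per gene and 1 array per group; the solid line marks equal differences, the dashed lines a 2-fold difference of differences, and colours the 6 classes. Most of the 12731 genes lie along the solid line, and Nkg7, at -1.32 in WT and 1.69 in miR-142-/-, lies farthest from it.

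Most genes that differed by stage in WT also differed in miR-142-/-. Of 66 genes at least 2-fold higher in WT Qa2+ cells (0.518% of all tested), 32 were at least 2-fold higher in miR-142-/- too, 18 were between 1.5- and 2-fold, and 16 were under 1.5-fold. Of 94 at least 2-fold lower in WT Qa2+ cells (0.738%), 53 also reached 2-fold lower without miR-142, 23 were between 1.5- and 2-fold, 17 were under 1.5-fold, and 1, Nkg7, was opposite. Choosing genes in 1 genotype favours that genotype, so the count was also made from the other side: 32 of 90 genes (0.707%) at least 2-fold higher in miR-142-/- Qa2+ cells, and 53 of 103 (0.809%) at least 2-fold lower, were so in WT. Of the 69 genes, 54 were above background on all 4 arrays, 6 on 3 and 9 on 2. With every value below background raised to the threshold of its array (5.82 to 5.93 log2), 66 of the 69 stayed at least 2-fold. An array was said to stand apart where it lay at least 1.5-fold from the nearest of the other 3, which spanned under 1.5-fold. Among the 69, the WT Qa2+ array stood apart in 7 genes, the miR-142-/- Qa2+ array in 10, the miR-142-/- Qa2- array in 3 and the WT Qa2- array in 0, and 49 had no such array.

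Among the genes with a higher value in the mature WT cells, the largest loss was at Dapl1, which codes for death-associated protein-like 1. Dapl1 read 7.11 in WT Qa2- and 9.72 in WT Qa2+ cells, but 8.64 and 8.98 in miR-142-/- Qa2- and Qa2+ cells. Its stage difference was 6.12-fold in WT and 1.27-fold in miR-142-/-, a difference of differences of -2.27 log2, and the Qa2- cells without miR-142 were already 1.53 log2 above WT. Igfbp4, which codes for a binding protein of insulin-like growth factors, showed the same layout at higher levels: 9.96 and 11.76 in WT, 10.95 and 11.33 in miR-142-/- (-1.42). Sidt1, which codes for a SID1 family transmembrane protein, differed: it was low in both miR-142-/- populations, at 7.04 and 7.36, against 8.67 and 10.42 in WT (-1.43). Tlr1, which pairs with Tlr2 as a receptor of bacterial lipoproteins, was weakened and not lost. It read 7.36 and 9.76 in WT against 7.40 and 8.58 in miR-142-/-, so the Qa2- values were within 0.04 log2 and the Qa2+ values 1.18 apart (-1.22).

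The other genes of this kind were higher in WT Qa2+ cells alone or nearly alone. Lrrc32, whose product GARP holds latent TGF-beta on regulatory T cells, read 7.87 and 9.32 in WT against 7.70 and 8.03 in miR-142-/- (-1.12). Nrp1, neuropilin, a surface marker of regulatory T cells made in the thymus, read 7.47 and 8.69 against 7.68 and 7.83 (-1.07). Itgb8, the integrin beta subunit that helps release active TGF-beta, was opposite: it read 6.53 and 7.29 in WT against 6.67 and 5.88 in miR-142-/- (-1.54). In these 3 genes the Qa2- values of both genotypes lay within 0.22 log2 of each other and the Qa2+ values were 0.86 to 1.41 lower without miR-142. Zbtb16, which codes for PLZF, the transcription factor of innate-like T cells, read 7.55 and 8.71 in WT against 6.87 and 6.99 in miR-142-/- (-1.05). Emc9, a subunit gene of the endoplasmic reticulum membrane complex, read 6.14 and 7.42 against 6.13 and 6.36 (-1.04). Jaml, an adhesion receptor gene (-1.43), and Ccr6, the receptor gene for the chemokine CCL20 (-1.01), were below background on both miR-142-/- arrays, so no stage difference could be read there; with the values raised to the thresholds theirs were -1.39 and -0.82. Emc9 falls outside the rule for named genes, as do Tagap, Prr11, Cybrd1, Klhl4, Fnbp1l, Fam163b, Padi2, Pld4, Prss34, Cdc42ep3, Snord22, Rundc3b, Abhd15, Lratd2, Gm7265, A530021J07Rik, Mir18 and Mir19b-1 below, and all were named after their values were seen.

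**Figure D2:**
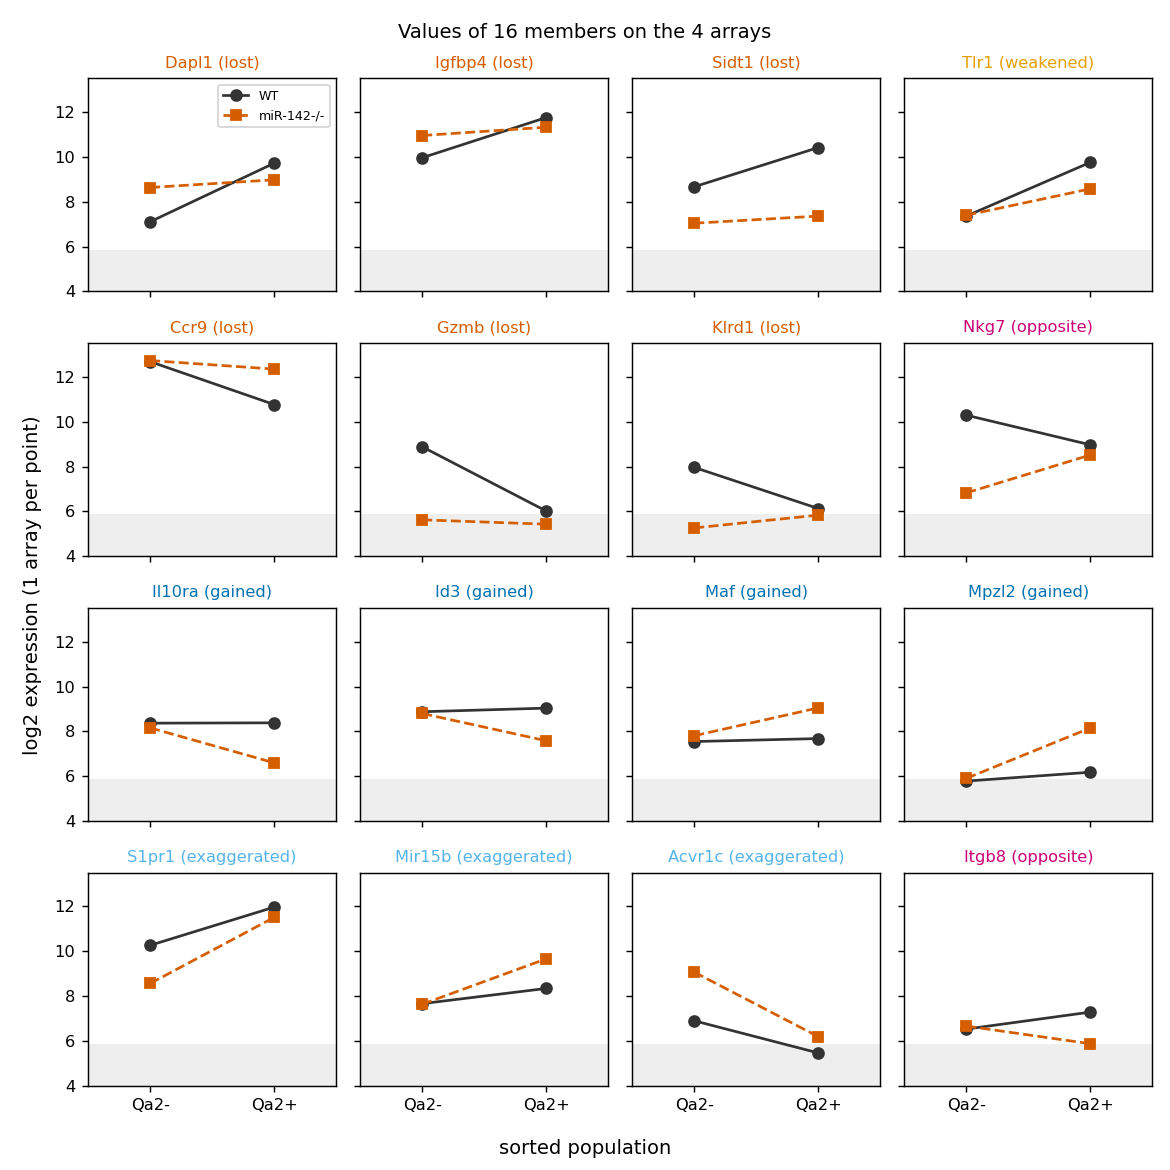
log2 expression (y axis) of 16 of the 69 genes in Qa2- and Qa2+ cells (x axis) of WT (black circles) and miR-142-/- (orange squares), 1 array per point; the grey band lies below the mean of the 4 background thresholds. Dapl1 and Igfbp4 are near level in miR-142-/- and differ in WT, Ccr9 stays near 12.35 to 12.73 in miR-142-/-, and Gzmb and Klrd1 are below background on both miR-142-/- arrays.

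The genes that were lower in Qa2+ cells of WT and not of miR-142-/- included the homing receptor Ccr9, which binds the chemokine CCL25 of the thymus and gut. Ccr9 read 12.68 in WT Qa2- and 10.77 in WT Qa2+ cells, and 12.73 and 12.35 in miR-142-/-: a 3.77-fold stage difference in WT against 1.30-fold, with a difference of differences of 1.53. Its Qa2- values were 0.05 apart, and the whole difference lay in the Qa2+ cells. Chl1, a neural adhesion molecule gene of the L1 family, was weakened: 9.48 and 6.50 in WT, 9.93 and 8.36 in miR-142-/- (1.41). Marcks, whose product binds actin and membranes, was weakened too, at 9.59 and 7.69 in WT against 9.75 and 8.87 in miR-142-/- (1.02). Klhl4, a kelch-like gene, read 7.69 and 6.08 against 8.39 and 7.96 (1.18), and Il12rb2, a chain gene of the interleukin-12 receptor, 8.58 and 6.93 against 7.85 and 7.48 (1.28). In all 5 the mature cells without miR-142 stood above WT, by 0.55 to 1.88 log2. Zfp931, a zinc finger gene (1.40), and Fnbp1l, which acts in actin assembly (1.01), had the same order. Fam163b was high in miR-142-/- at both stages, at 10.39 and 10.63 against 8.29 and 7.44 in WT (1.09).

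Also lower in Qa2+ cells of WT were 4 genes of a list of cytotoxic granule and natural killer (NK) receptor genes, Nkg7, Gzmb, Klrd1 and Xcl1, and 3 genes outside it, Fgl2, Slamf7 and Cxcr6. Nkg7, a cytotoxic granule membrane protein gene, had the largest difference of differences, 3.01: it read 10.29 in WT Qa2- and 8.97 in WT Qa2+ cells, but 6.83 and 8.52 in miR-142-/-. WT cells were thus 2.50-fold lower after maturation and miR-142-/- cells 3.23-fold higher; the 2 Qa2+ values were 0.45 apart and the 2 Qa2- values 3.47 apart. Gzmb, the protease granzyme B, read 8.88 and 6.02 in WT and was below background, at 5.62 and 5.43, in miR-142-/- (2.67). Klrd1, the CD94 chain of NK receptors, read 7.96 and 6.13 against 5.26 and 5.84 (2.41, or 1.74 with values raised to the thresholds). Fgl2, a secreted fibrinogen-like protein gene, read 7.84 and 6.16 against 5.24 and 5.81 (2.25, or 1.59), and Slamf7, a receptor gene of the SLAM family, 7.18 and 6.03 against 5.35 and 5.49 (1.29, or 1.05). For these 4 genes the miR-142-/- values lay below background at both stages, so the stage difference there could not be read and the values above rest on WT. Xcl1, a chemokine gene (1.15), and Cxcr6, a chemokine receptor gene of innate-like T cells (1.06), were likewise highest on the WT Qa2- array, at 8.74 and 8.56. Fewer cells of a kind and less RNA per cell cannot be told apart in such sorted populations.

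The whole lists show how far this went. Of 16 genes above background in a list of cytotoxic granule and NK receptor genes, 5 were at least 1.5-fold more positive (against 1.81% of all tested) and 0 more negative, with a median of 0.29; on the genes above background on all 4 arrays the count was 1 of 9 and the median 0.17. A further list of NK cell genes, written after these values were seen, held 13 genes on the array: 11 were above background on the WT Qa2- array, 5 on WT Qa2+, 2 on miR-142-/- Qa2- and 3 on miR-142-/- Qa2+. Their mean log2 values were 6.71, 5.36, 5.07 and 5.14 in that order; the list holds the genes that prompted it and is no independent support. Klrb1c, which codes for NK1.1, read 7.42 on the WT Qa2- array and 5.31, 4.41 and 4.41 on the others, whereas Ncr1, another defining NK gene, was below background on all 4. Klrc1, Klrc2, Klrk1, Klra5 and Itga1 were above background on the WT Qa2- array alone, which is why they are not among the 69. Not all such genes followed. Prf1, perforin, read 7.36 and 7.92 in WT against 6.84 and 7.77 in miR-142-/-. Eomes, of the further list, was higher without miR-142, at 6.56 and 6.16 against 5.90 and 5.83 in WT. Klra3, an NK receptor gene of the first list and not of the further one, read 8.02 and 5.42 in WT. It read 7.92 and 6.07 in miR-142-/-, so its Qa2- values were close in the genotypes. Without the genes of the cytotoxic, innate-like and CD8 lists, 33 genes were at least 2-fold more positive and 28 more negative; what part such cells have in the values was not tested.

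Lower in Qa2+ cells of miR-142-/- only were 10 genes, among them Il10ra, Id3 and Dusp4. Il10ra, the interleukin-10 receptor gene, read 8.37 and 8.38 in WT against 8.16 and 6.60 in miR-142-/- (-1.58). Id3, an inhibitor of E protein transcription factors, read 8.88 and 9.04 against 8.80 and 7.58 (-1.38). Dusp4, a phosphatase of MAP kinases, read 7.79 and 7.90 against 7.71 and 6.77 (-1.05). In these 3 genes the miR-142-/- Qa2+ array alone stood apart, and it was low. Tagap, a gene of activated T cells, was low at both stages without miR-142, at 8.80 and 7.87 against 10.02 and 10.22 (-1.13). H4c6, a replication-dependent histone gene, read 9.55 and 10.10 against 9.20 and 8.48 (-1.27). A further 4 genes were instead highest on the miR-142-/- Qa2- array. Fstl4, a follistatin-like gene, read 8.17 there against 5.99 in miR-142-/- Qa2+ cells and below background, 5.33 and 5.60, in WT, for a difference of differences of -2.46 (-2.12 with values raised to the thresholds). Gsta4, a glutathione transferase gene (-1.35), Homer2, a scaffold gene of synapses (-1.35), and Cybrd1, a ferric reductase gene (-1.22), were the others.

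Genes higher in Qa2+ cells only without miR-142 were the largest class, 19 genes. Mpzl2, an adhesion molecule gene, read 5.78 and 6.18 in WT against 5.90 and 8.15 in miR-142-/- (1.85), with the high value on the miR-142-/- Qa2+ array alone. AW112010, a transcript of lymphocytes, read 9.68 and 10.23 in WT against 8.43 and 10.65 in miR-142-/- (1.67), so here the Qa2- value was the low one. Maf, a transcription factor gene of helper and innate-like T cells, read 7.55 and 7.68 against 7.81 and 9.05 (1.11), and Abcb1a, the drug efflux pump P-glycoprotein, 6.92 and 7.18 against 6.69 and 8.30 (1.35). Atp8a2, a phospholipid flippase gene, read 7.78 and 7.81 against 8.51 and 9.94 (1.39), and Fam221a 7.96 and 7.64 against 8.10 and 9.29 (1.51). In these 4 genes the miR-142-/- Qa2+ value was the highest of the 4 arrays. Prim1, a DNA primase subunit gene (1.18), Rrs1, a ribosome assembly gene (1.35), and Cst7, the protease inhibitor cystatin F (1.11), were lowest on the miR-142-/- Qa2- array, at 6.66, 5.77 (below background) and 6.97. Prss34, a serine protease gene of basophils, read 6.08 and 6.03 in WT against 6.43 and 7.58 in miR-142-/- (1.19), and Padi2, an arginine deiminase gene, 8.02 and 8.37 against 7.76 and 9.28 (1.17). Beside Prss34, the basophil and mast cell genes Mcpt8 and Cpa3 were above background on the miR-142-/- Qa2+ array alone, at 7.44 and 8.60, as was the chemokine gene Ccl3 at 7.49. The other 9 genes of a list of basophil and mast cell genes, written after these values were seen, had differences of differences between -0.36 and 0.39, and Fcer1a, Ms4a2, Cd200r3, Mcpt4 and Cma1 of these were below background on all 4 arrays. The part of such cells in the gained class was not tested. The remaining genes of this class were Snord22, Cdc42ep3, Rundc3b, Abhd15, Pld4 and Lratd2, at 1.00 to 1.17, and the microRNA genes Mir18 and Mir19b-1, described below. Another probe set of Lratd2 gave 0.75, under 2-fold. The predicted genes Gm7265 (1.19) and A530021J07Rik (-1.01) were weakened.

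Where the stage difference was present in both genotypes and larger without miR-142, the 8 members were S1pr1, Atp8b4, Acvr1c, Exph5, Ly96, St3gal5 and the microRNA genes Mir15b and Mir16-2. S1pr1, which senses sphingosine-1-phosphate in the blood, read 10.27 and 11.97 in WT against 8.57 and 11.51 in miR-142-/-: 3.26-fold against 7.72-fold (1.24). The Qa2+ values were 0.46 apart and the Qa2- values 1.70 apart, so the larger step started from a lower point. Atp8b4, another flippase gene, had the same layout, at 7.58 and 8.81 in WT against 5.70 and 8.28 in miR-142-/- (1.36, or 1.13 with values raised to the thresholds). In the opposite direction, Acvr1c, an activin receptor gene, read 6.90 and 5.47 in WT against 9.07 and 6.19 in miR-142-/- (-1.44), and Exph5, an exophilin gene, 5.91 and 4.63 against 8.07 and 5.39 (-1.39). Both were more than 2 log2 higher in miR-142-/- than in WT Qa2- cells. With values raised to the thresholds they gave -1.80 and -2.13. Exph5 was below background in Qa2+ cells of both genotypes. With values so raised its stage difference was -0.09 in WT and -2.23 in miR-142-/-, so its step in WT could not be read. Ly96, which codes for MD-2, the partner of Tlr4 in binding lipopolysaccharide, read 8.75 and 7.63 against 8.15 and 5.88 (-1.14). St3gal5, the ganglioside GM3 synthase gene, read 6.98 and 6.29 against 7.62 and 5.85 (-1.08). Sfrp2, a secreted modulator of Wnt signals, had opposite stage differences, at 5.98 and 5.03 in WT against 6.42 and 7.02 in miR-142-/-. With values raised to the thresholds its difference of differences was under 2-fold, at 0.76, and its WT stage difference only -0.16.

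Among the 69 genes were 4 microRNA precursor genes, all more positive, of 105 above background (3.81%, against 0.314% of all tested), and 0 were more negative. Mir15b and Mir16-2 lie in 1 cluster on chromosome 3 and Mir18 and Mir19b-1 in the Mir17hg cluster on chromosome 14, so the 4 are not independent. The array reads the precursor or its transcript, not the mature strand. Their main mature strands are shown, with the seed in capitals (RefSeq, GRCm38.p6), because miR-15b and miR-16 share the seed AGCAGCA. They lie on the plus strand, at chr3:69009775-69009796, chr3:69009918-69009939, chr14:115043867-115043889 and chr14:115044358-115044380 in this order.
mmu-miR-15b-5p: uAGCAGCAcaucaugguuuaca
mmu-miR-16-5p: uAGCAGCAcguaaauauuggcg
mmu-miR-18a-5p: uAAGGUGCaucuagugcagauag
mmu-miR-19b-3p: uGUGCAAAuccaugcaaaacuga

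The miR-15 and miR-16 family is known to restrain cyclins and Bcl2, and the Mir17hg cluster is known to promote growth of lymphocytes. Mir15b read 7.67 and 8.35 in WT against 7.64 and 9.67 in miR-142-/- (1.35), and Mir16-2 6.26 and 6.94 against 6.44 and 8.22 (1.09). Both were thus higher in Qa2+ cells of each genotype, and the miR-142-/- Qa2+ value was the highest of the 4. Smc4, the host gene of that cluster, had a difference of differences of 0.10, with values from 11.58 to 12.02; Mir15a, of the related cluster elsewhere, had 0.20. Mir18 read 7.09 and 6.60 against 6.21 and 6.82 (1.10) and Mir19b-1 6.41 and 6.08 against 5.59 and 6.42 (1.15), or 0.81 with values raised to the thresholds. Both were lowest on the miR-142-/- Qa2- array. The host transcript Mir17hg had 0.79; Mir17, Mir19a and Mir20a of the cluster were below background on all 4 arrays.

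Of the lists, that of cell division held the most genes past 1.5-fold. Mitotic genes carry cells through G2 and chromosome separation, and mature thymocytes are known to divide before they leave. Of 56 G2 and mitosis genes above background, 19 were at least 1.5-fold more negative (against 1.62% of all tested), 0 were more positive, and 49 were below 0; the median was -0.37, against 0.00 over all genes. Their median stage difference was 0.51 in WT and 0.08 in miR-142-/-. The list stood lower without miR-142 at both stages: its mean log2 was 7.80 (Qa2-) and 8.28 (Qa2+) in WT against 6.58 and 6.67, and 37 and 43 of the 57 genes on the array were above background on the miR-142-/- arrays. Among the 35 above background on all 4 arrays, 13 were at least 1.5-fold more negative and the median was -0.40. Kif20a, a kinesin of cytokinesis, read 7.43 and 8.10 in WT against 6.68 and 6.26 in miR-142-/- (-1.10), and Cdc20, an activator of the anaphase-promoting complex, 7.45 and 8.28 against 7.22 and 6.99 (-1.06). Outside the list, Cks2, a cyclin-dependent kinase subunit gene, read 8.75 and 9.25 against 8.12 and 7.61 (-1.02), and Prr11 7.65 and 8.06 against 6.67 and 6.08 (-1.01). In all 4 the WT Qa2+ array was the highest and the miR-142-/- Qa2+ array the lowest. Other probe sets of Cks2 gave -0.85 and -0.88, both under 2-fold. Ckap2l and Cdca8 were at -0.92 and -0.89. The DNA replication list also stood lower without miR-142 at both stages. Its mean log2 was 8.79 (Qa2-) and 8.85 (Qa2+) in WT against 7.85 and 8.02. Its difference of differences did not share the shift of the mitosis list, with a median of 0.07. Of 42 genes, 4 were at least 1.5-fold more positive (Prim1, Gins1, Mcm6 and Lig1), against 1.81% of all tested. A further 2 were more negative (Ccne2 and Chaf1a), against 1.62%.

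The promoters of the mitosis list were described for 1 motif. The CCAAT box, a common element of cell-cycle promoters bound by NF-Y, was sought as CCAAT on either strand in the 250 bases upstream of each start (RefSeq, GRCm38.p6). It was found in 33.8% of all 32851 promoters and, counted by gene, in at least 1 promoter of 10133 of 27025 genes (37.5%). Of the list it was found in 15 of 17 mitosis genes at least 1.5-fold more negative that had a promoter in the table (88.2%), and in 17 of 31 other mitosis genes (54.8%). This is a description of letters, with no test, and shows no binding. Shown as examples are the promoters of Cdc20 (2 matches), of the list, and of Cks2 (2) and Prr11 (4). Cks2 and Prr11 are not in the list and not in these counts. All 3 genes were highest on the WT Qa2+ array and lowest on the miR-142-/- Qa2+ array. Kif20a, of the list, had the same layout and is not shown, so these 3 promoters do not stand for the list. They are printed 5′ to 3′ on the gene's strand, with matches in capitals, CCAAT or ATTGG. They lie at chr4:118437344-118437593 on the minus strand, chr13:51644982-51645231 on the plus strand and chr11:87108715-87108964 on the minus strand.
Cdc20: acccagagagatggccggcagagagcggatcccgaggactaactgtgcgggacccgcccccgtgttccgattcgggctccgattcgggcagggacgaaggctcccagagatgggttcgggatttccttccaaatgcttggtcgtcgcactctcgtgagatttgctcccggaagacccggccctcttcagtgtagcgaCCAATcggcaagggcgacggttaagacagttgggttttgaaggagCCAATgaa
Cks2: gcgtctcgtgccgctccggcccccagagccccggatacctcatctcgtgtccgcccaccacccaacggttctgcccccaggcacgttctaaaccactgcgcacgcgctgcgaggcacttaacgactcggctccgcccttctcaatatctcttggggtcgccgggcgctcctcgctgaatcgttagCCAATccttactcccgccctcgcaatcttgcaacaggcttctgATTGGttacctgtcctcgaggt
Prr11: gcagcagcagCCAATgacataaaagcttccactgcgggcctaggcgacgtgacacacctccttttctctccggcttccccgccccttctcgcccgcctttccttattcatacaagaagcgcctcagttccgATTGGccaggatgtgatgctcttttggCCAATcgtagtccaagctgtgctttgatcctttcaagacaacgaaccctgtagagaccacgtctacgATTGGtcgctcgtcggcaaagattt

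Genes of T cell receptor response and of regulatory T cells that passed 1.5-fold were also all on 1 side. Of 27 immediate-early genes, which respond within minutes to receptor signals, 7 were at least 1.5-fold more negative (against 1.62% of all tested) and 0 more positive (1.81%), with a median of -0.28. In this list 20 genes lay below 0 and 7 above, the highest being Dusp6 at 0.50. Nr4a3 was lower in Qa2+ cells by 0.81 log2 in WT and 1.75 in miR-142-/-, Nr4a2 by 1.34 and 2.03, and Dusp5 by 1.00 and 1.71, so their step down was larger without miR-142. Fosl2 was at -0.97 and Fos at -0.82, whereas Egr1, a zinc finger response factor, was at -0.02 and Jun, an AP-1 subunit, at -0.04. Of 19 regulatory T cell genes, 5 were at least 1.5-fold more negative (Lrrc32, Nrp1, Tnfrsf4, Tnfrsf9 and Nt5e; 1.62% of all tested), 0 were more positive and 18 were below 0 (median -0.35). Foxp3, the lineage factor, read 8.21 and 10.36 in WT against 7.01 and 8.69 in miR-142-/-, a stage difference of 2.15 against 1.68. Tnfrsf4, the costimulatory receptor OX40, read 11.10 and 10.96 in WT against 11.20 and 10.14 in miR-142-/- (-0.92).

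The lists of the maturation program itself were mixed; the counts below are at 1.5-fold, which 1.81% of all tested genes reached on the more positive side and 1.62% on the more negative side. Of 17 mature single-positive markers, 3 were at least 1.5-fold more positive (S1pr1, Ms4a6b and Slfn1) and 0 more negative. Of 20 immature single-positive markers, 3 were more positive (Ccr9, Itm2a and Dntt) and 3 more negative (Tnfrsf9, Rag1 and Nr4a1). Against the name of the list, Rag1 and Dntt were higher in Qa2+ cells of both genotypes. Rag1 was higher by 2.7 log2 in WT and 1.9 in miR-142-/-, and Dntt by 0.99 and 1.60. Itm2a, a membrane protein gene of selected thymocytes, was lower in Qa2+ cells by 1.72 log2 in WT and 0.81 in miR-142-/-. Of 18 innate-like T cell genes, 5 were more positive (Maf, Cxcr6, Il18r1, Id2 and Plac8) and 1, Zbtb16, more negative. Of 32 interferon response genes, 2 were more negative, Oas1a and Rsad2, and 26 were below 0 (median -0.14). Of 34 apoptosis and stress genes, 2 were more positive: Bmf, which codes for a killer protein of the Bcl-2 family, read 8.00 and 7.43 in WT against 8.84 and 9.20 in miR-142-/- (0.93), and Bcl2l11, which codes for Bim, was at 0.65. Of 31 reported miR-142 targets, 3 were more negative (Itgb8, Lrrc32 and E2f8), 0 were more positive, and the median was 0.08. In the lists of NF-kB (19 genes), T cell receptor signalling (29) and cytosolic ribosomal protein genes (50), 0 reached 1.5-fold in either direction.

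The other lists had few such genes, read against the same 1.81% and 1.62%. In egress and homing (22 genes), Ccr9, S1pr1 and Cxcr6 were more positive and Ccr6 and Sema4a more negative; in T cell transcription factors (37), Id2, Myb and Eya2 were more positive and Id3 more negative. In cytokine receptors and Socs genes (31), Il12rb2 and Il18r1 were more positive and Il10ra and Il1r2 more negative. Effector genes (16) gave Bhlhe40 against Lgals3 and Lgals1, Gimap and Schlafen genes (14) Slfn1 against Gimap7, double-positive genes (15) Dntt against Arpp21 and Rag1, and Golgi glycosylation (27) St3gal5 alone, lower. Like Dntt and Rag1, Arpp21 was higher in Qa2+ cells of both genotypes, by 1.79 log2 in WT and 0.79 in miR-142-/-. Of markers of other cells, 2 of the 12 B cell genes on the array, 3 of the 4 erythroid genes and 4 of the 6 gamma-delta T cell genes were above background, with 1, Maf, past 1.5-fold. None of the 6 gamma-delta genes is an antigen receptor gene. A probe set listed with 2 variable segments of the gamma receptor chain was left out for having several genes. It read 7.59 and 6.73 in WT against 9.43 and 10.52 in miR-142-/- (1.94), and its cell source was not tested. Of 13 myeloid genes, Lyz2 was at -0.92 and Lyz1 at -0.62, both highest on the WT Qa2+ array, and of 12 CD8 cell genes Nkg7, Klrd1 and Cst7 were more positive. Of 10 thymic stroma genes 0 reached 1.5-fold.

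**Figure D3:**
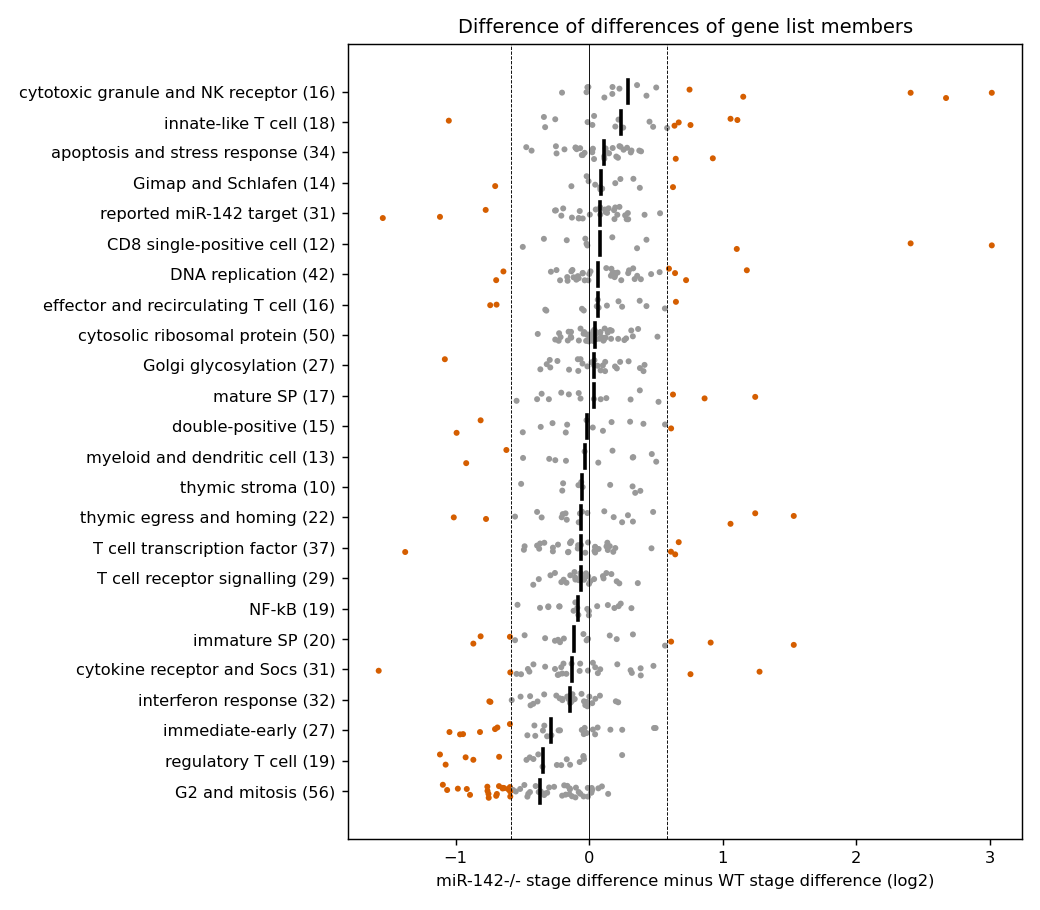
Difference of differences (x axis, log2) of the members above background (number in brackets) of the gene lists drawn. The B cell, erythroid and gamma-delta lists, with few such members, are not drawn. Each point is a gene, orange where it reached 1.5-fold (dashed lines), and the black bar is the list's median. The G2 and mitosis list lies at a median of -0.37 with 19 orange points, all to the left, and the cytotoxic list has its 5 to the right.

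**Figure D4:**
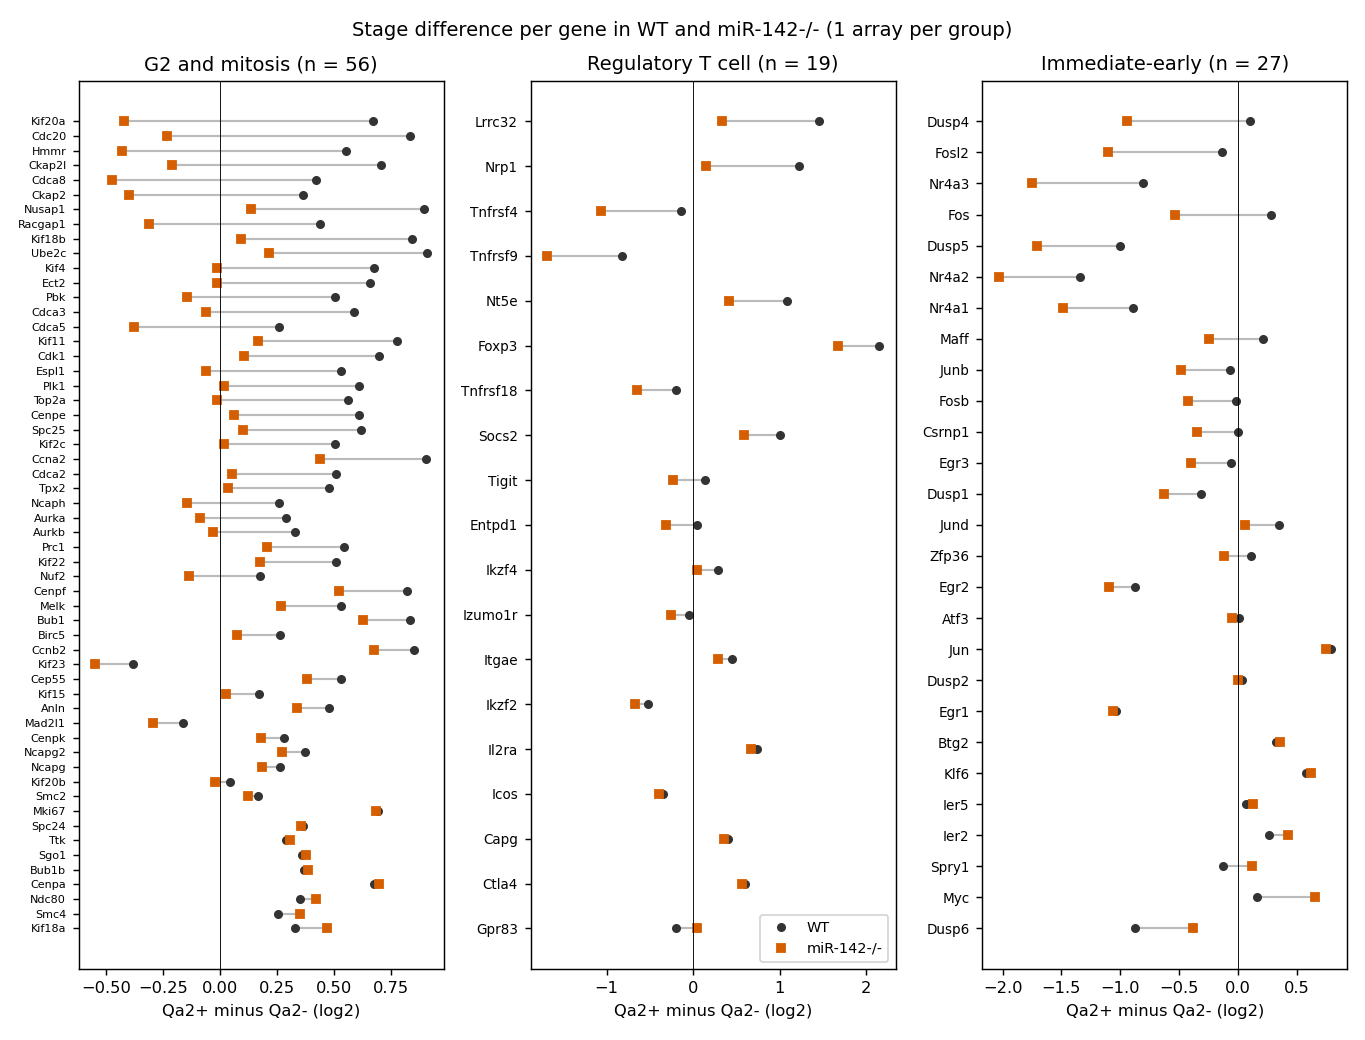
Stage difference (x axis, Qa2+ minus Qa2-, log2) of each gene above background in 3 lists, in WT (black circles) and miR-142-/- (orange squares), 1 array per group; a grey line joins the 2 values of a gene. In the mitosis panel most WT values lie right of the miR-142-/- values, with medians of 0.51 and 0.08.

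The difference of differences can lie in either population. Among the 40 genes more positive without miR-142, the genotypes differed by at least 1.5-fold in Qa2- cells only in 14, in Qa2+ cells only in 18 and in both with the same sign in 8. Among the 29 more negative, it was Qa2- only in 5, Qa2+ only in 11, both with the same sign in 11, and both with opposite sign in 2. The genotypes were apart in Qa2+ cells at Ccr9, Tlr1, Il10ra and Lrrc32, while S1pr1, Nkg7 and AW112010 were apart mainly in Qa2- cells.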

How the data were processed

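The authors deposited 1 value per probe set for each of 4 Affymetrix Mouse Gene 1.0 ST arrays, 1 per group. The tools, per the submitters' processing notes, were RMA and Partek, with versions and settings not given in the sources used here. The RMA method equalises the arrays and compresses differences of dim probe sets. That the deposited values are log2 was taken from their range and from RMA.

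Of 35557 probe sets, 21789 had 1 gene in the platform annotation, 1621 several and 12147 none; only the first kind named genes, and each of 19938 genes took its probe set with the highest mean. Background on each array was set from 1179 vomeronasal and olfactory receptor genes, at their 95th percentile, and 12731 genes above it on at least 2 arrays were kept. Values were compared with python 3.11.15, pandas 2.3.3 and numpy 2.4.6. With 1 array per group no test was made; the labels tell of no separate replicates, and precision is limited by having 4 arrays. The counting was tested on simulated data. Named genes were the label checks, the 6 largest differences of differences per class and direction, and the 4 largest per list of those past 1.5-fold, leaving out predicted, antigen receptor and Y-linked genes; genes named outside this rule were chosen after their values were seen. Members and lists were chosen with earlier results of these data known. Alternatives changed the scaling, the filter, the fold and the probe set rule. Sequences came from RefSeq (GRCm38.p6).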

Additional observations from a re-analysis of the deposited data

Results flagged for a closer look

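The stage differences of 3 genes had opposite signs in WT and miR-142-/-, each at least 1.5-fold; the difference was not tested. Nkg7 had a difference of differences of 3.01, Sfrp2 of 1.55 and Itgb8 of -1.54. Sfrp2 was below background in WT Qa2+ cells. With values raised to the thresholds its WT stage difference was -0.16, under 1.5-fold, so its opposite sign rests on a value below background.

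Probe sets outside the genes described also carried differences. Of 7599 probe sets above background with no gene in the annotation used here, 375 (4.93%) were at least 2-fold in the difference of differences, 298 more positive and 77 more negative. Of 984 with several genes, 9 (0.915%) were, 8 more positive and 1 more negative. The largest of the 9, at 1.94, was the gamma receptor chain probe set given above.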

How the results depend on the processing

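No paired analysis was possible because each group has 1 array and the labels give no replicate numbers. Subtracting each array's median or quantile normalization kept 65 of the 69 genes among 71 each, with 8 genes of opposite sign in each in place of 3. With the mean of a gene's probe sets there were 66 genes, all among the 69. Without the background filter 34 genes were lost and 5 opposite; above background on all 4 arrays, 5 were exaggerated. At 1.5-fold, 230 genes were more positive and 206 more negative, with 114 lost, 24 weakened, 116 gained and 32 exaggerated. The B cell list's median was -0.32 with the mean of a gene's probe sets, against 0.07 over 2 genes. The other 59 counts recomputed stayed within 1.5 times the reported count. The other 188 list medians shifted by less than 0.22 log2, the SD of the receptor genes. That limit is wider than most of the list medians, so it says little of small ones. Under either scaling, all 86 named genes shifted by less than 0.22 log2, and those past 1.5-fold kept their direction. Raising values below background to the threshold moved 12 genes, among them Il1r2 to -0.04, Hmmr to -0.64 and Ccne2 to -0.44. Leaving out the mitosis and replication lists, or the cytotoxic, innate-like and CD8 lists, left 66 and 61 genes; both were chosen after seeing the data. The cause of these moves was not tested. Signal near background limits the values of the 15 genes not above it on all 4 arrays.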

Other observations

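The filter left out 19 named genes with a difference of differences of at least 2-fold, 15 above background on 1 array and 4 on none. Besides the NK receptor and mast cell genes given above, Lix1 read 7.67 on the miR-142-/- Qa2- array and below background on the others, and Crmp1 read 6.70 on the WT Qa2+ array alone.

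The share of genes in the 69 differed with level: with the tested genes cut into 4 equal bins by mean log2 value, it was 0.597% in the lowest bin, 1.07% in the next, then 0.377%, and 0.126% in the highest.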
